A study of Homo sapiens with 16 samples.

Results

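The ADAM and ADAMTS proteases described here are 10 genes, ADAM8, ADAM9, ADAM10, ADAM12, ADAM15, ADAM17, ADAM19, ADAMTS1, ADAMTS6 and ADAMTS15, taken by symbol from 58735 genes in each of 2 deposited expression tables. All 10 were found in both tables. The members were chosen by symbol and partly on measured values: ADAM19 was selected on its FPKM values in gemcitabine against control libraries of PANC-1, and the list as a whole was drawn up with the changes of these libraries known, so the gemcitabine values of the 10 genes are given as a description, without a test. The samples were BxPC3 and PANC-1, established human cell lines of pancreatic ductal adenocarcinoma (PDAC), each grown as untreated control and with gemcitabine, a nucleoside drug that stops DNA replication, with 4 poly-A-enriched RNA-seq libraries in each of the 4 groups. Neither a dose nor a duration is in the labels, no vehicle is named for the controls, and nothing in them says that the 4 libraries of a group came from separate cultures, so any p-value below measures the spread between libraries, which may be technical.

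ADAMs are zinc proteases anchored in the cell membrane. They cut other membrane proteins close to the surface and so release growth factors, cytokines and adhesion receptors, a step called ectodomain shedding. ADAMTS proteases lack the membrane anchor, carry thrombospondin repeats and act on proteoglycans and other proteins of the extracellular matrix. Both kinds are made as inactive precursors with a prodomain. In many of them, not all, furin-like enzymes remove it, and some, not all, are restrained by TIMP proteins. An RNA level is therefore not a measure of protease activity.

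Depth ran from 22152034 to 37777222 reads per library over all listed genes, and a count of 3 reads on 1 kb of transcript corresponded to 0.0803 to 0.138 FPKM (fragments per kilobase of gene length, scaled per library). SMAD4, which BxPC3 is known to lack, was without a read in all 8 BxPC3 libraries and ranged from 3.03 to 4.04 FPKM in PANC-1, and CDKN2A, known to be deleted in both lines, had no read in any library. Of 6 epithelial markers, all were above 1 FPKM in BxPC3, with KRT19 the highest, whereas in PANC-1 controls 2 of the 6, KRT7 and CDH1, stayed under 1 FPKM. The summed level of the 6 was 2826 to 3297 FPKM in BxPC3 controls and 2672 to 3101 with gemcitabine, and 337 to 369 and 551 to 758 FPKM in PANC-1. KRT19 stood at 1841 and 1327 FPKM in BxPC3 and at 93.4 and 227 FPKM in PANC-1. Of 13 markers of fibroblasts, endothelium and leukocytes, 10 stayed under 1 FPKM in the BxPC3 controls and 11 in the PANC-1 controls. Their summed level was 15.1 to 16.1 FPKM in BxPC3 controls and 17.2 to 18.4 with gemcitabine, and 13.1 to 13.9 and 10.5 to 15.8 FPKM in PANC-1. The leukocyte gene PTPRC averaged 0.00606 FPKM in BxPC3 controls and 0.00558 in PANC-1 controls, CD3E had no read in PANC-1, and CD14 was the highest of the 13 in BxPC3 at 6.97 FPKM. The endothelial cadherin CDH5 stood at 0.603 FPKM in BxPC3 controls and 5.76 with gemcitabine, and the fibroblast collagen COL3A1 at 4.82 and 1.31 FPKM; the part of such cells in any result was not tested. In bulk RNA, fewer cells expressing a gene and less RNA per cell cannot be told apart.

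One library bears on several of these genes. PANC-1 gemcitabine replicate 1 stood apart from the other 3 libraries of its group by Dixon's criterion in 32.0% of the tested genes, and it was high for GC-rich and low for GC-poor transcripts. Over all tested genes its median deviation, on the log2(FPKM + 1) scale, was 0.45 in the quartile richest in GC and -0.42 in the poorest. The 8 protease genes tested in PANC-1 followed the same course: ADAM9, ADAM10 and ADAM17, whose longest transcripts hold 39.4%, 38.3% and 38.5% GC, deviated by -0.43, -0.42 and -0.25. ADAM8, ADAM15 and ADAMTS15, with 63.8%, 63.9% and 59.8% GC, deviated by 0.73, 0.52 and 0.44. ADAM19 at 53.7% GC deviated by 0.20 and ADAMTS1 at 48.6% GC by -0.04. PANC-1 results are therefore given with and without that library where it matters.

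**Figure D1:**
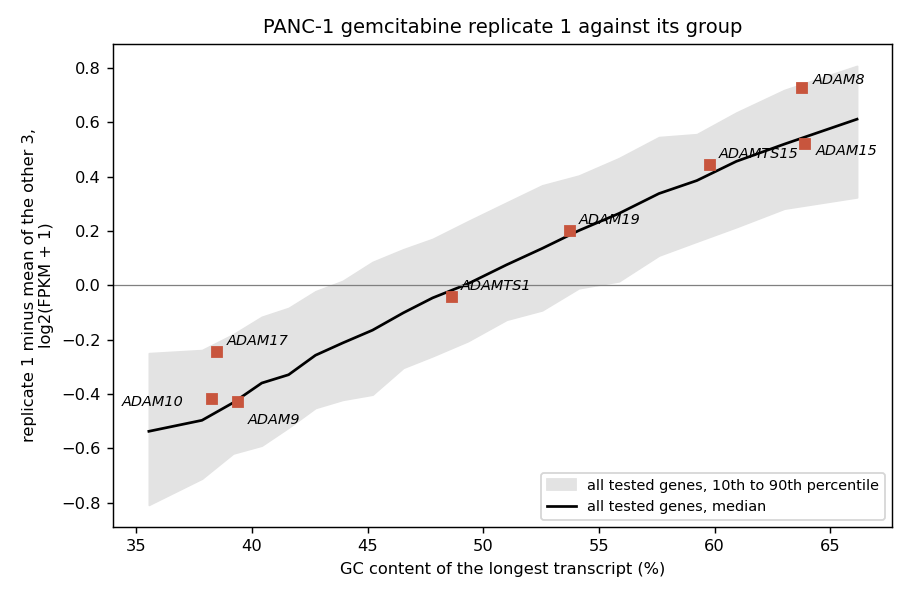
GC content of the longest transcript (x axis, percent) against the deviation of PANC-1 gemcitabine replicate 1 from the mean of the other 3 gemcitabine libraries (y axis, log2(FPKM + 1)). Squares are the 8 tested protease genes, the line is the median and the shaded band the 10th to 90th percentile of all tested genes in 20 bins of GC content; the squares run from -0.43 for ADAM9 to 0.73 for ADAM8 and rise with GC content as the line does.

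ADAM19 (meltrin beta; ENSG00000135074, chromosome 5, 157395534 to 157575775, minus strand, GRCh38) is a membrane protease that can process neuregulin precursors. In PANC-1 it stood at 1.27, 1.37, 1.21 and 1.14 FPKM in control replicates 1 to 4 and at 14.4, 11.9, 12.6 and 12.9 FPKM with gemcitabine. Every gemcitabine library was thus several times above every control. The means were 1.25 ± 0.0942 and 13.0 ± 1.06 FPKM (SD, n = 4), a ratio of 10.4, from 949 control reads and 10779 gemcitabine reads in all. Without gemcitabine replicate 1 the ratio was 9.99. Of 12508 genes tested in PANC-1, 7 had a larger change in log2(FPKM + 1) than ADAM19. Since ADAM19 was selected for this rise, its rank is a description and no evidence that the change is unusual. In BxPC3 the same gene stood at 0.311, 0.337, 0.362 and 0.400 FPKM in controls and at 1.09, 0.940, 0.886 and 0.883 FPKM with gemcitabine. These groups did not overlap either, but the level was low (363 and 971 reads in all), the ratio of the means was 2.70, and only 1 library reached 1 FPKM, so the gene was outside the genes tested in BxPC3. The difference between the lines was not tested. CYFIP2, on the opposite strand, shares 62 exonic bases with ADAM19 (0.805% of its gene length) and had at most 0.592 FPKM in PANC-1.

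The windows upstream of the start sites of ADAM19, ADAM8 and ADAMTS6 are shown because these genes lay above their controls in every gemcitabine library of both lines and their RefSeq start sites coincide with the annotated gene start. Each window is the 250 bases before the start site, from RefSeq (GRCh38.p14), 5′ to 3′ on the gene's strand. Capitals mark matches, on either strand, to 6 searched motifs: the AP-1 site TGANTCA, the cAMP response element TGACGTCA, the GC box GGGCGG, the CCAAT box CCAAT, the TATA box TATAAA and the E box CACGTG. None of these motifs overlaps another in the windows shown.
ADAM19, chr5:157575776-157576025, minus strand: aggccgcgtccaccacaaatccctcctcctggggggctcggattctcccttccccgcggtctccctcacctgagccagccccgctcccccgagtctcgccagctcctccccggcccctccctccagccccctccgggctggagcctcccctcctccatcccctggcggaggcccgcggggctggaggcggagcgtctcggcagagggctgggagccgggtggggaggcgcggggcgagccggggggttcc
ADAM8, chr10:133276869-133277118, minus strand: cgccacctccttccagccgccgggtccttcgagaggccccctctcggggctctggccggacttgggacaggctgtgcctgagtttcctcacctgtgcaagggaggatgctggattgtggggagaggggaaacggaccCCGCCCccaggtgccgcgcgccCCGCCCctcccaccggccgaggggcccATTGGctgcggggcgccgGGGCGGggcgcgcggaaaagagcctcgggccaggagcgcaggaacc
ADAMTS6, chr5:65481921-65482170, minus strand: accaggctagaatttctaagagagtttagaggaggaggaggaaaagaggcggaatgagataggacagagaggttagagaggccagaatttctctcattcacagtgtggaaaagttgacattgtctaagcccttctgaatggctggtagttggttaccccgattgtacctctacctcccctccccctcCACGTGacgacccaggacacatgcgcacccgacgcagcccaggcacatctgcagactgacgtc

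The ADAM8 window held 3 GC boxes and 1 CCAAT box, the ADAMTS6 window held 1 E box, and the ADAM19 window held none of the 6 motifs. Among 27305 windows of the same length a GC box occurred in 42.3%, a CCAAT box in 33.0%, an E box in 6.49%, a TATA box in 11.1%, an AP-1 site in 6.60% and a cAMP response element in 1.77%. The windows of ADAM19 and ADAM8 were GC-rich, at 76.4% and 73.6%, above 92.2% and 87.5% of all windows, while that of ADAMTS6 held 52.4% GC, against a median of 58.0%. RefSeq windows were matched for 7 of the 10 genes. Those of ADAM12, ADAM15 and ADAM17 held 3, 6 and 3 GC boxes, and that of ADAM10 held 1 GC box and 1 E box.

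ADAM8, ADAM9 and ADAM15 are membrane proteases of which ADAM8 is best known from leukocytes and from invasive pancreatic tumour cells, and ADAM15 carries an RGD sequence, a motif bound by integrins, in its disintegrin domain. In BxPC3 all 3 were abundant and higher with gemcitabine. ADAM8 (ENSG00000151651, chromosome 10, 133262403 to 133276868) stood at 67.3, 71.0, 68.5 and 68.9 FPKM in controls and at 89.2, 96.2, 97.1 and 98.6 FPKM with gemcitabine, a ratio of means of 1.38. ADAM15 (ENSG00000143537, chromosome 1, 155050566 to 155062775) stood at 44.1, 48.4, 42.9 and 43.2 against 62.8, 63.8, 67.2 and 68.6 FPKM, a ratio of 1.47. ADAM9 (ENSG00000168615, chromosome 8, 38996869 to 39105144) stood at 35.0, 34.5, 35.5 and 35.4 against 48.4, 47.0, 44.9 and 44.5 FPKM, a ratio of 1.32. In each of these genes the lowest gemcitabine library lay above the highest control.

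In PANC-1 the same 3 genes parted. ADAM8 was low in controls, at 1.03, 1.14, 1.23 and 1.15 FPKM, and stood at 6.44, 3.42, 3.94 and 3.16 FPKM with gemcitabine, so the groups did not overlap. The ratio of its means was 3.74 with all libraries and 3.09 without replicate 1, its highest library. ADAM9 stood at 33.6, 31.6, 34.7 and 34.5 FPKM in controls and at 27.9, 38.7, 37.3 and 37.9 FPKM with gemcitabine. Replicate 1 lay below all 4 controls and the other 3 above them, and the ratio was 1.05, or 1.13 without that library. ADAM15 showed the mirror image, at 8.66, 9.55, 8.67 and 8.20 FPKM in controls against 10.1, 6.77, 6.44 and 6.92 FPKM. Replicate 1 lay above every control and the other 3 below, and the means of 8.77 ± 0.565 and 7.55 ± 1.69 FPKM (SD, n = 4) became 8.77 ± 0.565 and 6.71 ± 0.249 FPKM (SD, n = 3) without it, a ratio of 0.765. ADAM15 was therefore higher with gemcitabine in BxPC3 and, leaving out replicate 1, lower in PANC-1. That difference was not tested.

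ADAM10 and ADAM17 are the main constitutive and inducible sheddases of epithelial cells. ADAM10 starts the cleavage of Notch receptors and cuts cadherins, betacellulin and EGF, and ADAM17 (TACE) releases TNF, TGF-alpha, amphiregulin and HB-EGF. ADAM10 (ENSG00000137845, chromosome 15, 58588807 to 58749978) was lower with gemcitabine in BxPC3, where it stood at 25.7, 24.8, 26.2 and 25.8 FPKM in controls and at 17.1, 17.0, 15.9 and 16.1 FPKM with the drug, 64.4% of control. It was the only one of the 10 whose gemcitabine libraries all lay below the controls in BxPC3. In PANC-1 it stood at 10.9, 9.92, 10.96 and 10.7 FPKM in controls and at 10.1, 13.8, 13.8 and 13.9 FPKM with gemcitabine. Replicate 1 lay among the controls and the other 3 above them, with a ratio of 1.22, or 1.30 without replicate 1.

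ADAM17 (ENSG00000151694, chromosome 2, 9488486 to 9556732) stood at 1.55, 1.59, 1.76 and 1.58 FPKM in BxPC3 controls and at 1.58, 1.55, 1.49 and 1.37 FPKM with gemcitabine. These groups overlapped, and the gemcitabine mean was 92.4% of control. In PANC-1 it stood at 10.3, 9.31, 9.83 and 9.43 FPKM in controls and at 10.4, 12.2, 12.8 and 12.5 FPKM with gemcitabine, a ratio of 1.23. The lowest gemcitabine library, replicate 1, lay just above the highest control. The esterase gene IAH1 lies on the opposite strand and shares 1323 exonic bases with ADAM17, 12.3% of the gene length used, and it was listed at 0.961 to 1.28 FPKM in BxPC3 and at 5.81 to 9.30 FPKM in PANC-1. Whether reads were counted by strand is not given, so reads in the shared bases cannot be assigned to either gene.

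ADAM12 (meltrin alpha; ENSG00000148848, chromosome 10, 126012381 to 126388455), a protease of mesenchymal and placental cells that can cut HB-EGF, was close to the limit of detection. Its reads were 3, 1, 5 and 0 in BxPC3 controls and 9, 20, 8 and 13 with gemcitabine. In PANC-1 they were 0, 6, 2 and 12 in controls and 14, 15, 10 and 7 with gemcitabine, which overlap. The values are gene sums, so the membrane-bound and secreted forms of ADAM12 could not be separated.

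The 3 ADAMTS genes of the list, which code for secreted proteases, stood higher with gemcitabine in every library of both lines. The share of all genes that did so in both lines was not computed. Outside the list, ADAMTS14 and ADAMTS16 also lay apart and higher in both lines, and ADAMTS13 lay apart and lower in both. ADAMTS7 and ADAMTS20, among others, overlapped in both. Most of these levels were under 1 FPKM. ADAMTS1 (ENSG00000154734, chromosome 21, 26835747 to 26845409) cuts versican and aggrecan, large chondroitin sulfate proteoglycans. In BxPC3 it stood at 1.62, 1.62, 1.74 and 1.79 FPKM in controls and at 12.1, 13.0, 12.03 and 11.9 FPKM with gemcitabine, 1.69 ± 0.0815 against 12.2 ± 0.523 FPKM (SD, n = 4) and a ratio of 7.23. Of 12215 genes tested in BxPC3, 44 had a larger change in log2(FPKM + 1). This rank too is a description, since the list was drawn up with these changes known. In PANC-1 it stood at 0.712, 0.510, 0.614 and 0.528 against 1.11, 1.14, 1.22 and 1.16 FPKM, a ratio of 1.96.

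ADAMTS15 (ENSG00000166106, chromosome 11, 130448974 to 130476641), which also cuts versican, stood at 0.516, 0.478, 0.573 and 0.618 FPKM in BxPC3 controls and at 2.81, 3.39, 2.96 and 2.71 FPKM with gemcitabine, a ratio of 5.43. In PANC-1 it stood at 2.46, 2.94, 2.68 and 2.23 FPKM in controls and at 12.05, 8.46, 8.85 and 8.51 FPKM with gemcitabine, a ratio of 3.67, or 3.34 without replicate 1. In both lines the 2 groups were well apart. ADAMTS6 (ENSG00000049192, chromosome 5, 65148736 to 65481920), a relative of ADAMTS10 that acts on microfibril proteins, stayed under 0.5 FPKM throughout. Its reads were 12, 17, 22 and 13 in BxPC3 controls and 132, 82, 85 and 99 with gemcitabine, a ratio of mean FPKM of 6.20, and 15, 17, 9 and 13 against 26, 56, 50 and 58 in PANC-1, a ratio of 3.15.

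**Figure D2:**
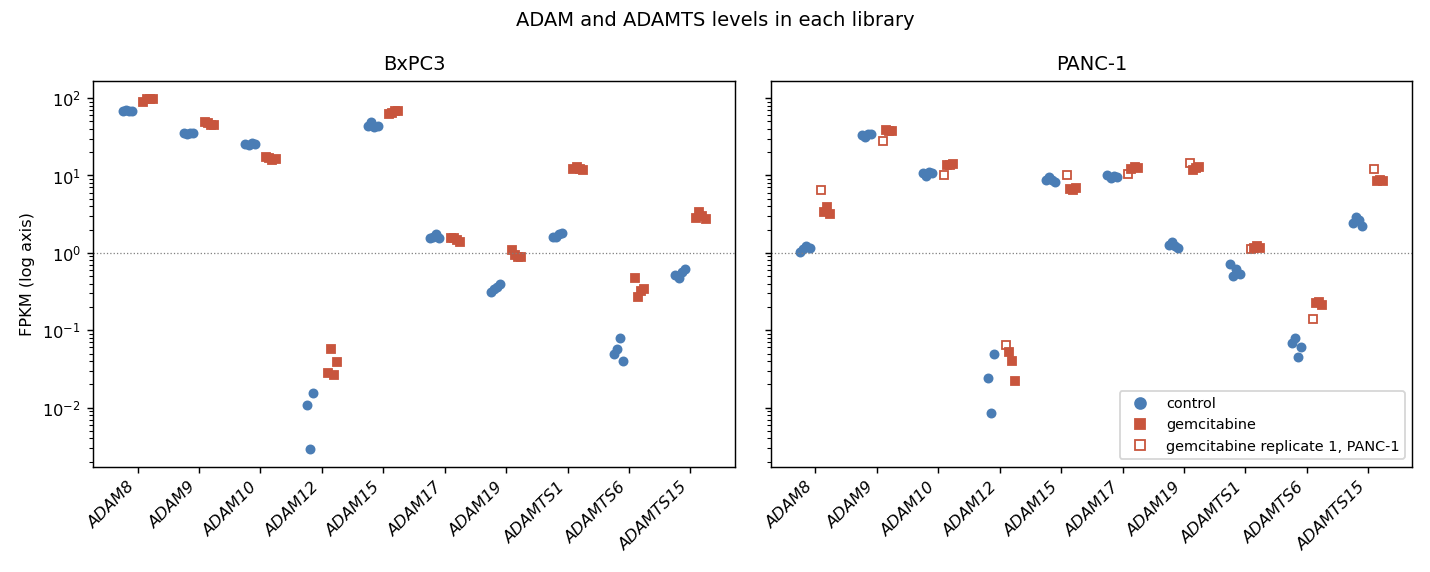
FPKM of the 10 genes (log axis) in the 8 libraries of BxPC3 (left) and PANC-1 (right), circles for control and squares for gemcitabine, with PANC-1 gemcitabine replicate 1 as an open square; libraries without a read of ADAM12 (1 control in each line) are not drawn and the dotted line marks 1 FPKM. ADAM19 in PANC-1 runs from 1.14 to 1.37 FPKM in controls and from 11.9 to 14.4 with gemcitabine, and ADAM10 in BxPC3 from 24.8 to 26.2 and from 15.9 to 17.1.

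Across the list, 9 of the 10 genes in BxPC3 had groups that did not overlap, 8 higher with gemcitabine and 1, ADAM10, lower. The exception was ADAM17. Without BxPC3 gemcitabine replicate 1 its highest gemcitabine library (1.549 FPKM) lay just below its lowest control (1.552 FPKM). That library stood apart in 1.69% of the tested genes, so no weight is put on leaving it out. In PANC-1 the count was 6, all higher, and without replicate 1 it was 9, ADAM12 being the exception. These counts include genes too low to test, such as ADAM12 in BxPC3 and ADAMTS6 in both lines. Among genes high enough to test, groups were apart for 6 of 7 in BxPC3 and 5 of 8 in PANC-1 with all libraries. The background was wide, since 67.5% of tested genes had groups apart in BxPC3 (34.3% higher, 33.2% lower) and 45.8% in PANC-1 (21.3% higher, 24.5% lower), or 69.5% in PANC-1 without replicate 1. In all, 5 genes lay apart and higher in both lines: ADAM8, ADAM19, ADAMTS1, ADAMTS6 and ADAMTS15. Of these, ADAMTS6 was too low to test in either line and ADAM19 in BxPC3. The share of all genes that lay apart and higher in both lines was not computed, so nothing is read from this count. A level of at least 1 FPKM in at least 4 libraries was reached by 7 of the 10 genes in BxPC3 and 8 in PANC-1, of which 1 in each line, ADAMTS15 in BxPC3 and ADAMTS1 in PANC-1, reached it through the gemcitabine libraries alone. In the fit across all tested genes with limma at an adjusted p under 0.05, 6 of the 7 were called in BxPC3, 5 higher and 1 lower, where 73.4% of all genes were called, 37.3% higher and 36.1% lower. In PANC-1 5 of the 8 were called, all higher, where 44.8% were called, 20.7% higher and 24.0% lower, or 69.8% without gemcitabine replicate 1. These counts rest on the contrast by which the list was drawn up, and nothing is read from them. ADAM9, ADAM10 and ADAM15 were not called in PANC-1, with log2 changes of 0.06 ± 0.10, 0.25 ± 0.10 and -0.21 ± 0.12 (SE). Without gemcitabine replicate 1 these changes were 0.17 ± 0.04, 0.36 ± 0.04 and -0.34 ± 0.05 (SE).

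**Figure D3:**
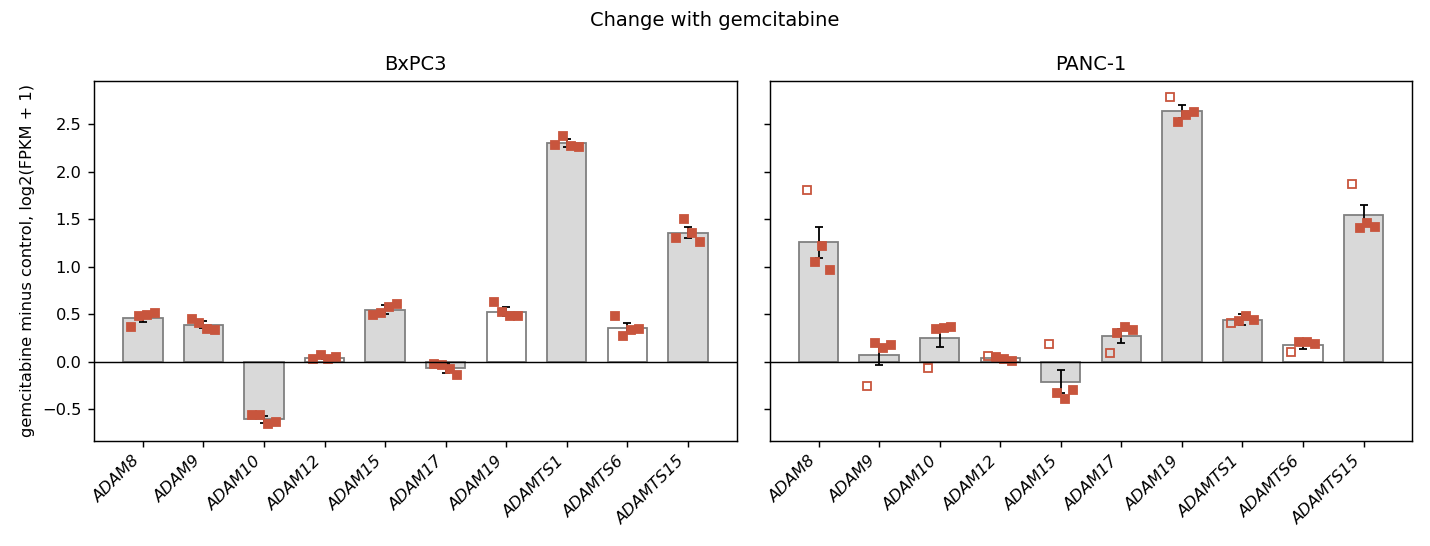
Difference between gemcitabine and control in log2(FPKM + 1) for the 10 genes in BxPC3 (left) and PANC-1 (right). Bars are the fitted change with its standard error, grey for genes tested and white for genes below the level filter; squares are single gemcitabine libraries minus the control mean, open for PANC-1 replicate 1, which stands away from the other 3 for ADAM8, ADAM9, ADAM10, ADAM15 and ADAMTS15.

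Levels are ranked within a line on FPKM, which divides reads by the deposited gene length. That length was 4780 bases for ADAM8 and 16168 for ADAM10, and the order and shares given here depend on it. By reads alone, ADAM10 stood above ADAM8 in BxPC3 controls (54961 against 43747 in all). In BxPC3 controls the order was ADAM8 (68.9 FPKM), ADAM15 (44.7), ADAM9 (35.1) and ADAM10 (25.6), none of whose ranges overlapped, followed at a distance by ADAMTS1 (1.69) and ADAM17 (1.62), which overlapped each other. In PANC-1 controls ADAM9 led at 33.6 FPKM, followed by ADAM10 (10.6), ADAM17 (9.71) and ADAM15 (8.77), each overlapping the next. With gemcitabine, ADAM19 moved from place 6 to place 2 in PANC-1, where its range overlapped that of ADAM10. The summed level of the 10 genes was 179 ± 2.91 FPKM in BxPC3 controls and 242 ± 4.13 with gemcitabine, and 68.3 ± 1.48 and 95.9 ± 2.18 FPKM in PANC-1 (SD, n = 4). ADAM8 made up 38.6% of that sum in BxPC3 controls and 39.4% with gemcitabine, but 1.66% and 4.45% in PANC-1. The share of ADAM10 in BxPC3 was 14.4% in controls and 6.84% with gemcitabine. In PANC-1 the share of ADAM9 was 49.2% and 36.9%, and that of ADAM19 1.83% and 13.5%.

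**Figure D4:**
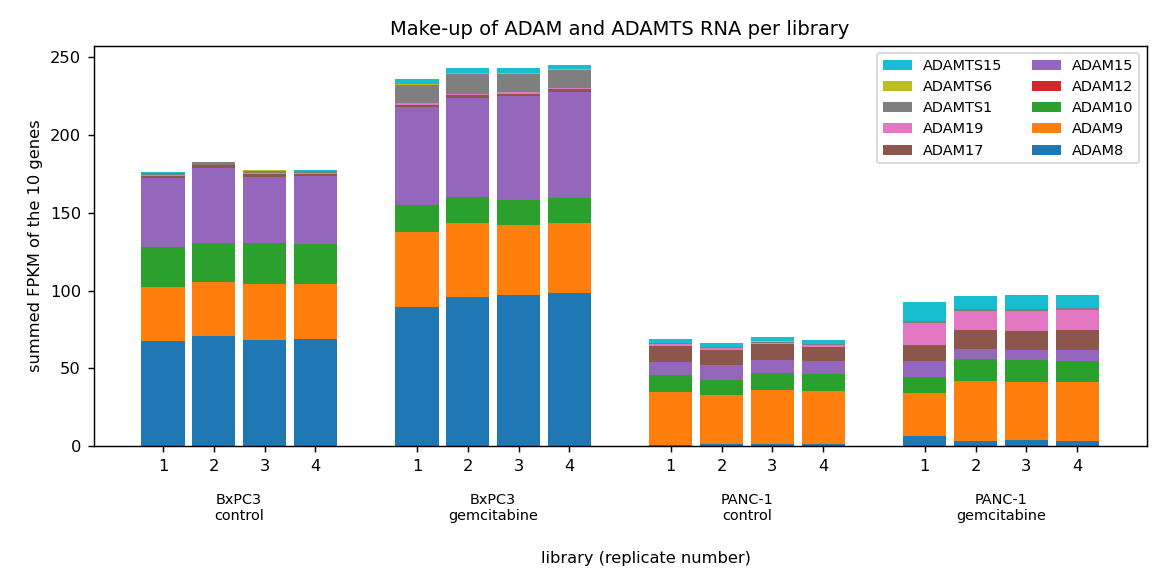
Summed FPKM of the 10 genes in each of the 16 libraries (bars), stacked by gene; the x axis gives the replicate number within each line and group. Bars reach 176 to 183 FPKM in BxPC3 controls and 236 to 245 with gemcitabine, and 66.5 to 69.9 and 92.7 to 97.2 FPKM in PANC-1; ADAM8 and ADAM15 fill most of the BxPC3 bars and ADAM9 is the largest segment of every PANC-1 bar.

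The 2 untreated lines were compared with limma. The rule names no contrast between lines, but it used the controls of both lines, and the list was drawn up with results of these libraries known. The adjusted p-values below therefore describe differences against the spread between libraries and are not independent support. The PANC-1 controls are part of the contrast that selected ADAM19, so ADAM19 is given here as a description without a p-value. Since each table was normalized on its own, values were first converted to TPM (a per-length level that sums to the same total in every library). ADAM8 was 50.6-fold higher in untreated BxPC3, at 234 ± 4.78 against 4.61 ± 0.326 TPM (SD, n = 4 per line), a log2 difference of 5.39 ± 0.05 (SE, limma adjusted p = 1.00e-13). ADAM15 was 4.24-fold higher in BxPC3, at 151 ± 3.41 against 35.6 ± 2.27 TPM (adjusted p = 5.30e-11). ADAM10 was 2.02-fold higher (adjusted p = 2.84e-08) and ADAMTS1 2.39-fold higher in BxPC3 (adjusted p = 3.32e-06). In the other direction, ADAM17 was 7.18-fold higher in PANC-1, at 39.5 ± 1.93 against 5.50 ± 0.454 TPM (limma adjusted p = 6.62e-11). ADAMTS15 was 5.64-fold higher in PANC-1 (adjusted p = 1.54e-08). ADAM19 stood at 1.195 ± 0.142 TPM in BxPC3 and 5.07 ± 0.384 TPM in PANC-1, a ratio of 4.24. For all 7 of these genes the 4 libraries of one line lay above the 4 of the other, as for 83.6% of all tested genes (27.2% higher in BxPC3, 56.4% lower).

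ADAM9 stood at 119 ± 5.87 TPM in BxPC3 and 137 ± 5.84 TPM in PANC-1, a log2 difference of -0.20 ± 0.05 (SE, limma adjusted p = 0.00250). Its direction depended on the scaling: with median-ratio scaling the difference was 0.35, and with the deposited FPKM 0.06. ADAM12 and ADAMTS6 were below the level filter in both lines, and their ranges overlapped. In all, 8 of 8 tested genes were called, 4 higher and 4 lower in BxPC3, with ADAM19 counted among the lower. Of all 16968 tested genes, 87.3% were called, 28.8% higher and 58.6% lower. The count of 8 includes ADAM19, which is only described, and nothing is read from it. The median difference of all tested genes was -0.49 on the TPM scale and -0.01 with median-ratio scaling, so that values for single genes are read against that shift.

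**Figure D5:**
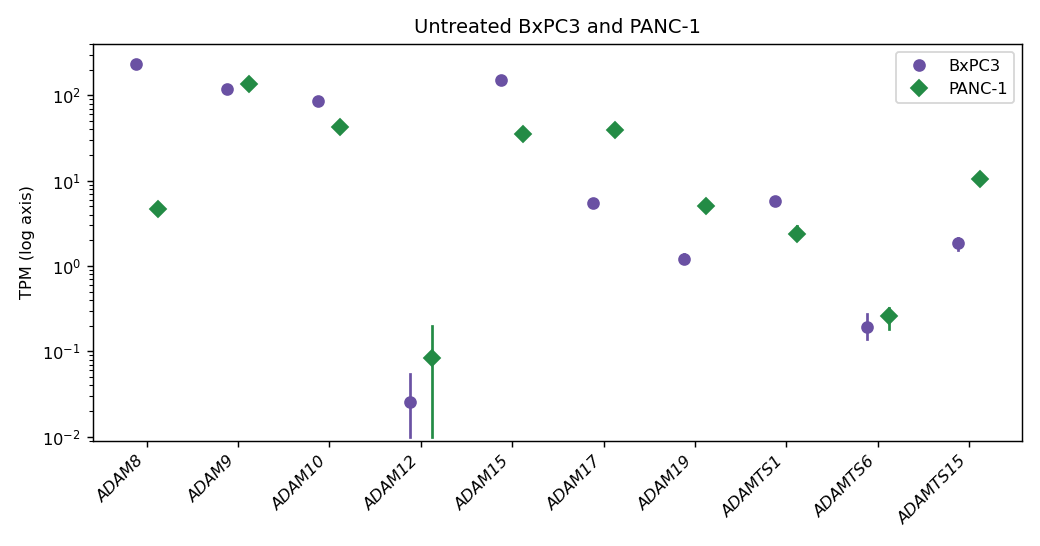
TPM (log axis) of the 10 genes in untreated BxPC3 (circles) and PANC-1 (diamonds); symbols are means of 4 libraries and lines run from the lowest to the highest library, drawn down to the foot of the axis for ADAM12, where 1 library of each line had no read. ADAM8 stands at 234 and 4.61 TPM, ADAM17 at 5.50 and 39.5 TPM.

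Of the rest of the ADAM family, 14 genes were listed, and 1 was high enough to test in BxPC3 and 2 in PANC-1. None was called in BxPC3, where limma gave an unadjusted p of 0.0708 for ADAM28, the gene tested (2.24 ± 0.0596 FPKM in controls, 2.43 ± 0.109 with gemcitabine); limma-voom on the reads also called 0, and the TPM scaling called it higher. In PANC-1 ADAM11 and ADAM22, which lack a catalytic zinc site and act at synapses, were lower (limma adjusted p = 0.0193 and adjusted p = 0.0495), with means of 1.502 and 0.964 FPKM for ADAM11 and of 1.38 and 1.14 FPKM for ADAM22. Both calls were fragile. That of ADAM22 was lost when any 1 of the 8 libraries was left out (adjusted p up to 0.127), and that of ADAM11 without control replicate 1 (adjusted p = 0.0523), control replicate 2 (0.0543) or gemcitabine replicate 2 (0.0547).

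Of 22 further ADAMTS and ADAMTS-like genes, 4 were tested in each line, where 37.3% of all tested genes were called higher and 36.1% lower in BxPC3, and 20.7% and 24.0% in PANC-1. In BxPC3 ADAMTS12, a protease that cuts cartilage oligomeric matrix protein, rose 9.74-fold, from 0.603 ± 0.105 to 5.87 ± 0.612 FPKM; all 4 controls lay under 1 FPKM, so it entered the test through the gemcitabine libraries alone, and its p is not given. The other 3 of BxPC3, all without a protease domain, fell: ADAMTSL5 from 8.15 ± 0.429 to 2.67 ± 0.0551 FPKM, papilin (PAPLN) from 6.44 ± 0.570 to 1.83 ± 0.142 FPKM and ADAMTSL4 from 1.55 ± 0.0690 to 1.06 ± 0.112 FPKM. In PANC-1 ADAMTSL4 and ADAMTS13, the protease of von Willebrand factor, fell (limma adjusted p = 1.46e-04 and adjusted p = 0.00547), and 2 did not pass. Without gemcitabine replicate 1, where 69.8% of all tested genes were called, all 4 were called lower.

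Growth factor precursors that ADAMs release were higher in both lines: 6 of 6 tested members of a list of 8 rose in BxPC3 and 5 of 5 in PANC-1, beside 37.3% and 20.7% of all genes. Their median log2 change was 0.89 in BxPC3 and 1.14 in PANC-1, against 0.00 and -0.02 over all tested genes. In BxPC3 epiregulin (EREG) rose 3.12-fold, from 5.94 ± 0.208 to 18.5 ± 1.07 FPKM, TGF-alpha (TGFA) 2.22-fold and the neuregulin gene NRG1 2.23-fold. In PANC-1 EREG rose 6.22-fold, from 2.86 ± 0.225 to 17.8 ± 4.22 FPKM, HBEGF 2.41-fold and NRG1 2.07-fold (limma adjusted p at most 2.19e-05 for these 6).

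The natural inhibitors moved in both directions. TIMP1 and TIMP2 rose in both lines, TIMP2 by ratios of 1.69 (BxPC3) and 2.74 (PANC-1). TIMP3, the TIMP that inhibits ADAM17 and ADAMTS proteases, fell in BxPC3 from 92.1 ± 2.06 to 49.0 ± 0.421 FPKM (limma adjusted p = 6.76e-09). In PANC-1 TIMP3 was low, at 1.14 FPKM in controls and 1.204 with gemcitabine, and did not pass. RECK, a membrane-bound inhibitor, had no read in BxPC3 and fell in PANC-1 from 8.47 ± 0.304 to 5.31 ± 0.321 FPKM (limma adjusted p = 5.82e-05).

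Of 21 genes that process, carry or clear these proteases, 10 of 18 tested rose and 6 fell in BxPC3, and 6 of 20 rose and 6 fell in PANC-1, or 8 and 10 without gemcitabine replicate 1. Of all tested genes, 37.3% rose and 36.1% fell in BxPC3 and 20.7% and 24.0% in PANC-1, and 69.8% were called in PANC-1 without replicate 1. FURIN, which removes many prodomains, rose 1.24-fold in BxPC3. There TSPAN15, a tetraspanin partner of ADAM10, fell from 35.1 ± 1.08 to 26.2 ± 1.72 FPKM. In PANC-1 neither passed with all libraries. Means there were 31.2 and 41.3 FPKM for FURIN and 51.9 and 49.7 FPKM for TSPAN15. FURIN ranged from 29.2 to 33.8 FPKM in controls and from 35.4 to 56.0 with gemcitabine, so its groups did not overlap. TSPAN15 ranged from 50.4 to 54.4 and from 44.6 to 63.4 FPKM. Neither is given without gemcitabine replicate 1, so no lack of change is read from these values. In PANC-1 the Src substrate SH3PXD2A (TKS5), an invadopodium scaffold that binds ADAM19 among other ADAMs, rose 2.06-fold, from 2.51 ± 0.179 to 5.17 ± 0.298 FPKM, whereas in BxPC3 it fell from 6.58 ± 0.831 to 4.54 ± 0.386 FPKM (limma adjusted p = 7.60e-04). SNX9, a sorting nexin that binds ADAM9 and ADAM15, rose 1.89-fold in PANC-1 and 1.13-fold in BxPC3. LRP1, an endocytic receptor that clears secreted proteases, fell in both lines, from 11.1 ± 1.01 to 4.80 ± 0.436 FPKM in BxPC3 and from 5.47 ± 0.515 to 1.93 ± 0.483 FPKM in PANC-1.

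Other membrane proteins that are shed went both ways. In BxPC3 the cytokine TNF and the surface protein CD274 had all 4 controls under 1 FPKM. Both entered the test through the gemcitabine libraries alone and could count only as rises. Of 19 cytokines and receptors, 6 of 13 tested rose and 4 fell in BxPC3, and 8 of 14 rose and 4 fell in PANC-1, beside 37.3% higher and 36.1% lower of all tested genes in BxPC3 and 20.7% and 24.0% in PANC-1. AXL rose in both lines, 1.71-fold (BxPC3) and 1.74-fold (PANC-1), ERBB2 fell in BxPC3 from 24.2 ± 0.189 to 10.8 ± 0.199 FPKM, and NOTCH3 fell in PANC-1 from 3.19 ± 0.182 to 0.730 ± 0.258 FPKM. Of 22 adhesion and other surface proteins, 11 of 19 tested rose and 7 fell in BxPC3, and 9 of 18 rose and 2 fell in PANC-1, or 10 and 4 without gemcitabine replicate 1, beside the same shares of all tested genes and 69.8% called without that library. The stress ligand MICB rose 2.91-fold in BxPC3, and syndecan 1 (SDC1) rose 3.77-fold in PANC-1 and fell in BxPC3 from 209 ± 2.13 to 153 ± 4.48 FPKM (limma adjusted p = 2.26e-06).

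Among 18 matrix proteins and other targets of ADAMTS proteases, 5 of 8 tested rose and 3 fell in BxPC3, and 5 of 9 rose and 3 fell in PANC-1, where 4 fell without gemcitabine replicate 1. Of all tested genes, 37.3% rose and 36.1% fell in BxPC3, 20.7% and 24.0% in PANC-1, and 69.8% were called in PANC-1 without that library. The large proteoglycans themselves were scarce: aggrecan (ACAN) and versican (VCAN) averaged 0.00148 and 0.00473 FPKM in BxPC3 controls, and versican in PANC-1 averaged 1.30 FPKM in controls and 0.243 with gemcitabine. Fibronectin (FN1) rose 13.3-fold in BxPC3, from 0.609 ± 0.0567 to 8.07 ± 0.954 FPKM, and fell in PANC-1 from 16.9 ± 1.02 to 6.02 ± 0.437 FPKM (limma adjusted p = 9.92e-07 in PANC-1). In BxPC3 all 4 controls of FN1 lay under 1 FPKM. It entered the test through the gemcitabine libraries alone, and that p is not given. TFPI2 in PANC-1, counted among the rises, also had all 4 controls under 1 FPKM. The latent TGF-beta binding protein LTBP1 rose 2.34-fold in PANC-1, and SEMA3C, a guidance factor that ADAMTS1 can cut, fell there from 66.5 ± 1.73 to 15.4 ± 2.63 FPKM.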

How the data were processed

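Poly-A-enriched RNA of 16 libraries was measured, 4 in each of 4 groups taken from the sample titles. For each line the authors deposited a table of FPKM and, as its other measure, gene length in bases, per the file headers. The submitters' processing notes name CASAVA and HISAT2, give no versions, and name the build mm10, yet the 58735 identifiers are human and their starts and ends are those of GENCODE 29 on GRCh38. Which program counted reads, and whether by strand, is not given in the sources used here. Read numbers were recovered from FPKM times length, which came out whole for 100.0% of values (tolerance 0.02 reads); levels given for 3 reads reflect counting error alone. Precision is limited by depth for genes under 1 FPKM, such as ADAM12.

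Each line was fitted in R 4.3.3 with the trend and robust options of limma 3.58.1's empirical Bayes step on log2(FPKM + 1). Genes entered if 4 or more libraries reached 1 FPKM, and p-values were adjusted by Benjamini-Hochberg over all of them (threshold 0.05). A gene under 1 FPKM in every control could enter only as a rise. Under 1 FPKM in every gemcitabine library, it could enter only as a fall. The counts for lists and for all genes include such genes. The fold of a low gene is understated on that scale, so ratios of mean FPKM are given. The untreated lines were fitted alike on log2(TPM + 1), with TPM computed from FPKM. Tables were handled with pandas 2.3.3 and figures drawn with matplotlib 3.10.9. The 10 genes and all lists were chosen with earlier results of these data known; from each of 8 lists of related genes, up to 4 with the smallest p past the threshold per line could be named, and others that are named were chosen after their values were seen. Alternatives were a pseudocount of 0.1, no filter, other scalings, limma without trend and robust, limma-voom on the reads, the replicate number as a block, each library left out and, added after the data were seen, removal of each library's GC trend.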

Additional observations from a re-analysis of the deposited data

Results flagged for a closer look

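In 40 groups of 4 libraries (10 genes, 4 groups), 5 held a library that stood apart by Dixon's criterion; chance flags about 1 in 20 groups. PANC-1 gemcitabine replicate 1 was that library for ADAM9 (27.9 FPKM, the lowest of its group), ADAM10 (10.1 FPKM, the lowest), ADAM15 (10.1 FPKM, the highest) and ADAMTS15 (12.05 FPKM, the highest). Its deviation moved with GC content over all tested genes, as given above. In BxPC3, control replicate 3 stood apart for ADAM17 (1.76 FPKM, the highest of its group), a library that did so in 0.655% of the tested genes. BxPC3 control replicate 2 did so in 8.76% of the tested genes, the largest share after PANC-1 gemcitabine replicate 1. It was flagged for none of the 10 genes, but was the highest control for ADAM15 (48.4 FPKM).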

How the results depend on the processing

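Of 128 recomputed values for the 8 genes compared between untreated lines, 124 kept their direction and call. The other 4 concern ADAM9, whose difference turned to 0.0627 with the deposited FPKM, 0.35 with median-ratio scaling, 0.36 with limma-voom on the reads and 0.0928 with the GC trend removed; scaling also set the split of all genes, 4881 higher and 9935 lower in BxPC3 on TPM but 7185 and 7255 with median-ratio scaling and 5879 and 8709 on the deposited FPKM. The 240 recomputed gemcitabine changes cover the protease genes high enough to test, 7 in BxPC3 and 8 in PANC-1. None of these changes turned sign, and 24 moved by more than the spread between libraries. ADAM12 and ADAMTS6 in both lines, and ADAM19 in BxPC3, have no such check. The log2 change of ADAM19 in PANC-1 was 2.63, and 3.28 with a pseudocount of 0.1; that of ADAMTS15 in BxPC3 was 1.36 and 2.25, and that of ADAMTS1 in PANC-1 0.44 and 0.87, since a pseudocount of 1 compresses low levels. With 1 library left out, the calls in PANC-1 ranged from 2189 to 4102 higher and from 2452 to 4626 lower, the highest counts being those without gemcitabine replicate 1. Removing the GC trend gave 3739 and 4494.

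Replicate numbers did not pair the libraries: same-numbered deviations correlated from -0.33 to 0.18 in BxPC3 and from -0.38 to 0.19 in PANC-1. With the replicate number as a block, 4347 genes were higher and 4206 lower in BxPC3, 2175 and 2464 in PANC-1 and 4858 and 9908 between the untreated lines. Of 512 recomputed counts of rises and falls in the lists of related genes, 21 moved clearly from the main fit and 491 stayed the same or close. The naming rule took the entries with the smallest p, 66 for related genes and markers. Of these, 3 lost their call under some alternative: ADAM11, ADAM22 and the marker COL1A1, all in PANC-1. Under the block it was ADAM22 (limma adjusted p = 0.146).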

Other observations

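The level of ADAM17 in untreated BxPC3 was low together with that of its neighbours on chromosome 2, a pattern looked for after its level was seen. All 11 tested genes within 500 kb on either side were lower in untreated BxPC3 than in untreated PANC-1, with a median log2 difference of -2.24 against -0.49 over all tested genes (limma on TPM; 58.6% of all tested genes were called lower). ADAM17 itself differed by -2.64 ± 0.06 (SE). YWHAQ, a 14-3-3 protein, stood at 133 ± 3.14 TPM in BxPC3 and 786 ± 18.6 TPM in PANC-1 (limma adjusted p = 6.84e-13), CPSF3, an endonuclease of mRNA 3′ end formation, at 10.3 ± 0.813 and 55.3 ± 3.09 TPM, and TAF1B, a factor of ribosomal RNA transcription, at 3.48 ± 0.318 and 28.3 ± 1.65 TPM (SD, n = 4). The smallest difference of the 11 was that of GRHL1, at -0.53 ± 0.09 (SE), close to the median of -0.49 over all tested genes. Differences of the neighbours are given on TPM alone, and that median depended on the scaling. IAH1, also among the 11, shares exonic bases with ADAM17. The cause was not tested.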
